A study of Mus musculus with 44 samples.

Results

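The mitochondrially encoded transcripts of mouse plasma cells were taken as every row of the gene table whose gene name begins with mt-. The rule found 37 of 54960 gene rows: 13 protein-coding genes, 2 ribosomal RNA genes and 22 transfer RNA genes. All 22 transfer RNA genes were listed at 0 in all 44 libraries. The other 15 members had counts and passed the filter on low counts, which left 12457 genes for testing.

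The series followed plasma cells, the antibody-secreting cells of the B lineage, in mice of the genotype given as BEC-YFP. All mice had received tamoxifen, and plasma cells with high CD138 and no B220 were sorted from marrow and from spleen into a YFP+ and a YFP- fraction. The labels call the YFP+ fraction LLPC and the YFP- fraction bulk PC, and they do not state which promoter drives the tamoxifen-dependent label. The fractions were taken 5 days after tamoxifen from mice aged 24 weeks at treatment, 90 days after tamoxifen from mice aged 24 weeks at treatment (24-week mice), and 90 days after tamoxifen from mice aged 6 to 8 weeks at treatment (young mice). Organ, fraction and these 3 mouse groups gave 12 groups of 3 or 4 libraries, 43 libraries in all from 13 mice. Libraries of day 90 were tied to a mouse by the mouse name in their titles, and those of day 5 by the date in their titles. Every day 5 and day 90 group of either fraction shares the genotype and the tamoxifen, so no group shows plasma cells of untreated mice.

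Mitochondria keep a small circular genome of their own, which encodes core subunits of the respiratory chain and of ATP synthase together with the ribosomal and transfer RNAs that translate them. Both strands are copied by a dedicated RNA polymerase into long polycistronic precursors, and the transfer RNAs between the genes mark where the precursors are cut. All other proteins of mitochondria, among them most respiratory chain subunits and the whole protein part of the mitochondrial ribosome, come from nuclear genes. Plasma cells secrete large amounts of antibody, and mitochondrial respiration has been tied to the survival of long-lived plasma cells.

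Total counts ran between 6643308 and 12663115 a library with a median of 9588559. No row is named for an immunoglobulin heavy or light chain gene, so shares refer to the rest of the transcriptome, in which the J chain gene Jchain alone took 19.9% to 46.2%. Sdc1, which encodes CD138, was counted in every library at 149 to 909 CPM (counts-per-million, scaled for library composition). The lowest 3 Sdc1 values, 149, 190 and 238 CPM, belonged to YFP- libraries: replicate 2 of the day 5 spleen, and the spleen and the marrow of the 24-week mouse M2. The next lowest value was 321 CPM. In these bulk samples, fewer contributing cells and less RNA per cell cannot be told apart. One library whose title and cell type label disagree on its fraction was left out, and its mitochondrial coding share was 0.751%.

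The sequences decide which members can be read from the table on their own. A stretch of 4663 bases on the minus strand of chromosome 1, from 24611535 to 24616197 on GRCm38, carries 7 annotated pseudogenes that match mitochondrial coding genes at 99% identity or more over at least 250 bases. Gm28437 covers 783 bases of mt-Co3, Gm10925 covers 678 of mt-Atp6, Gm28661 covers 681 of mt-Co2, Gm28439 covers 876 of mt-Nd4 and Gm10222 covers 294 of mt-Nd4l, each with 0 mismatches. Gm29216 covers 483 bases of mt-Co1 with the single substitution A1066T, and Gm28438 covers 345 bases of mt-Nd3 with the single substitution T3C. Positions count from 1 at the first base of the mitochondrial gene, whose base is written first and the base of the copy last. The 2 pairs that a sequence can separate are shown around their differing base, which is in capitals, from the GENCODE M21 transcripts. The mt-Co1 stretch is chrM:6390-6423 (+), that of Gm29216 is chr1:24616155-24616188 (-), the mt-Nd3 stretch is chrM:9459-9491 (+) and that of Gm28438 is chr1:24613087-24613119 (-).
mt-Co1: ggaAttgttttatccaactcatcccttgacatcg
Gm29216: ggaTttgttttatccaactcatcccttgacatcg
mt-Nd3: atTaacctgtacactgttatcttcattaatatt
Gm28438: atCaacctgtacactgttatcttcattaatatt

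For the other pairs no read inside the aligned stretch can name its source. The first 60 bases of mt-Co3 (chrM:8607-8666, +) are letter for letter those of Gm28437 (chr1:24613912-24613971, -), and the first 60 bases of mt-Nd4l (chrM:9877-9936, +) are those of Gm10222 (chr1:24612641-24612700, -). They are shown because these are the genes whose deposited counts were mostly or wholly on the copy.
mt-Co3 and Gm28437: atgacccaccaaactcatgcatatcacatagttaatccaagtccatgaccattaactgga
mt-Nd4l and Gm10222: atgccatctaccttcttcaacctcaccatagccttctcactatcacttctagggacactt

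Members also overlap each other. The end of mt-Atp8 and the start of mt-Atp6 share 43 bases on the same strand (chrM:7927-7969), in capitals below within chrM:7897-7999, and a read inside them belongs to both genes. mt-Nd4l and mt-Nd4 share 7 bases (chrM:10167-10173), and mt-Nd5 and mt-Nd6 share 14 on opposite strands (chrM:13552-13565). The counting is not stated to use strand, so reads from these 14 bases cannot be told apart either.
mt-Atp8 and mt-Atp6: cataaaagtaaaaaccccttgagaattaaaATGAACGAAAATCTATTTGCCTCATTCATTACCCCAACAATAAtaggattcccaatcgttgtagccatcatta

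The deposited counts of the copies were large. Over the 43 libraries the copies held a median of 30.1% of all counts given to the coding members and the copies together, from 24.5% to 36.6%. Gm28437 alone had a median of 30573.38 counts, against 2936.82 for mt-Co3 over all 44 libraries. The split differed by gene: the copy held a median of 91.5% of the pair for mt-Co3, 80.9% for mt-Nd3, 18.3% for mt-Atp6, 17% for mt-Co1 and 0.0147% for mt-Co2. For mt-Nd4l it held 100%, and mt-Nd4l itself was above 0 in 5 of the 44 libraries. Identical sequence was therefore shared out in quite different ratios, and for mt-Nd3 and mt-Nd4l the ratio ran from 0% to 100% between libraries. Deposited values of mt-Co3, mt-Nd3 and mt-Nd4l cannot be read as levels of those transcripts, and sums with the copy are given beside them below. Gm10925 held from 0% to 55.1% of the mt-Atp6 pair, so deposited mt-Atp6 values also depend on this split. Such a sum counts nuclear and mitochondrial reads together, and how much the nuclear stretch is transcribed was not tested.

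**Figure D1:**
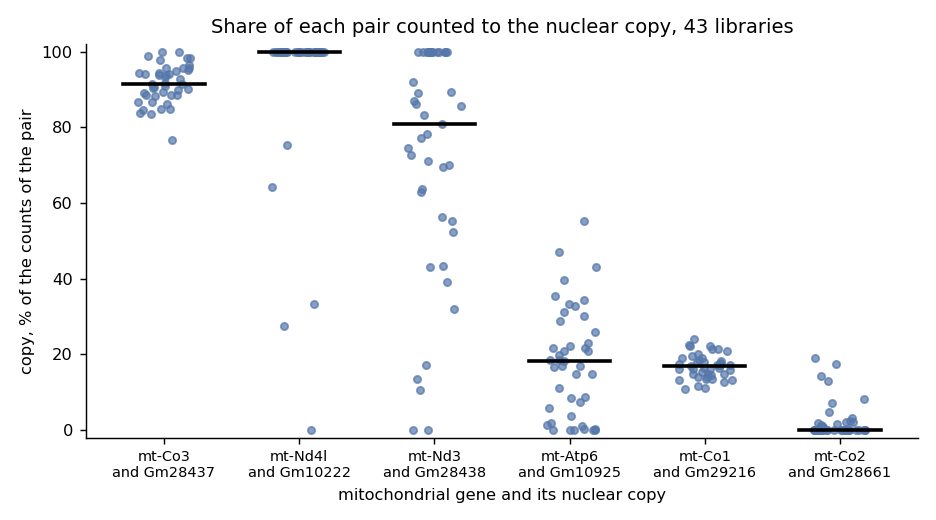
Percent of each pair's summed counts that the deposited table assigned to the chromosome 1 copy (vertical axis), for the gene pairs along the horizontal axis; each point is 1 of the 43 libraries and the bar is their median. Gm28437 holds 76.7% to 100% of its pair with mt-Co3, whereas Gm29216 holds 10.8% to 24% of its pair with mt-Co1.

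The coding members had very unequal counts for their length. Per kilobase of gene, the median level over the 43 libraries was 2120 CPM for mt-Co1, the catalytic subunit of cytochrome c oxidase (complex IV), and 1860 for mt-Co2, its electron entry subunit. It was 1910 CPM per kilobase for mt-Cytb, the cytochrome b of complex III. mt-Atp6, the proton channel subunit of ATP synthase, had 1140 CPM per kilobase as deposited and 1440 with its copy. mt-Atp8, its small partner subunit on the same precursor, had 18.9. mt-Atp8 shares 43 of its 204 bases with mt-Atp6. How far the counting of reads in short or overlapping genes shaped these values was not tested. mt-Co1, mt-Cytb, mt-Co2 and mt-Atp6, 4 of the 13, held a median of 81.5% of all coding counts.

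The complex I genes lay lower. mt-Nd1 had a median of 571 CPM per kilobase, mt-Nd4 267, mt-Nd5 220 and mt-Nd2 71.9, all core membrane subunits of NADH dehydrogenase. mt-Nd6, the one coding gene read from the other strand, had 32.8. mt-Nd3 was at 6.2 as deposited and 33.4 with its copy, and mt-Nd4l at 0 and 14.1. mt-Co3, the remaining core subunit of complex IV, was at 379 as deposited and 4590 with its copy, which placed it above every other member. With copies summed, mt-Co1 made up a median of 30.6% of coding counts, mt-Co3 25.9%, mt-Cytb 16.4%, mt-Co2 9.51% and mt-Atp6 6.95%. The large-subunit ribosomal RNA mt-Rnr2 had a median of 240 CPM per kilobase and the small-subunit mt-Rnr1 53.9, both below the leading coding genes, and the 2 together took a median of 0.0389% of counts, from 0.0151% to 0.196%.

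**Figure D2:**
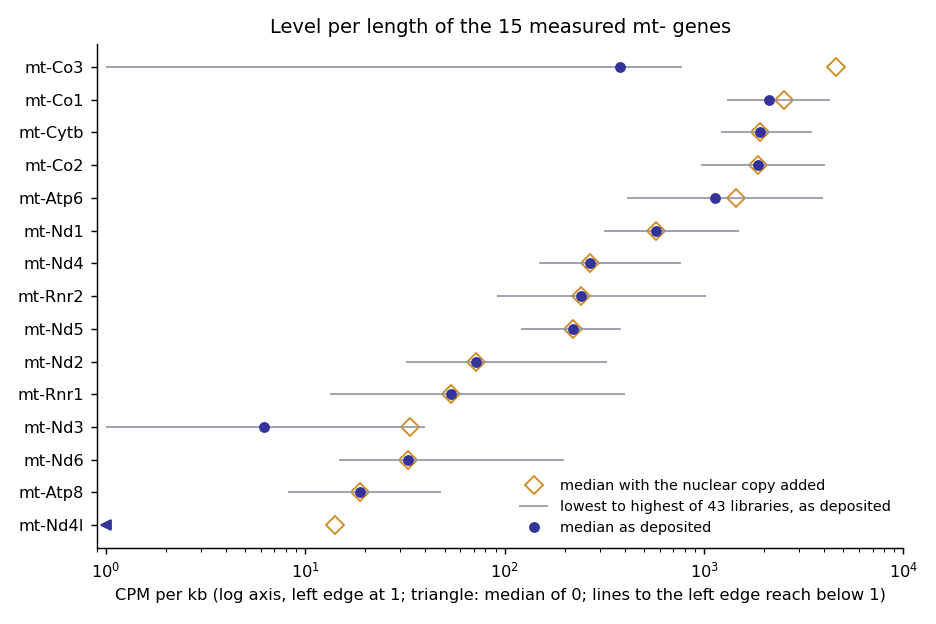
Median CPM per kilobase of gene over the 43 libraries (horizontal axis, log scale) for the 13 coding and 2 ribosomal RNA members, as deposited (filled) and with the counts of any nuclear copy added (open); lines span the lowest to the highest deposited value. mt-Co3 moves from 379 as deposited to 4590 with its copy, and mt-Co1 moves from 2120 to 2530.

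The members also varied to unequal degrees between libraries. The coefficient of variation of the CPM over the 43 libraries was lowest for mt-Cytb at 24.9%, then mt-Nd5 at 28.1% and mt-Co1 at 30.2%. It was 65.9% for mt-Nd2, 78.6% for mt-Nd6 and 96.3% for mt-Rnr1. For mt-Co3 it fell from 60.9% as deposited to 25.3% with the copy. Across libraries, Pearson's r of log2(CPM + 1) with the sum of the other coding members was 0.952 for mt-Nd1, 0.951 for mt-Nd4, 0.924 for mt-Co1 and 0.91 for mt-Cytb, and 0.785 for mt-Rnr2. It was 0.334 for mt-Co3, 0.371 for mt-Nd3 and -0.101 for mt-Nd4l as deposited. These values describe 43 libraries from 13 mice, which share animals, library depth and the same fixed total, so no test is attached to them.

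The 13 coding members together took 0.969% ± 0.266 of counts (SD, n = 43), from 0.587% to 1.97%. With the copies added the median was 1.36%, from 0.867% to 2.66%. The 4 marrow groups of day 90 had mean shares of 0.935% ± 0.031 (24-week YFP-, n = 4), 1.08% ± 0.0912 (24-week YFP+, n = 4), 0.921% ± 0.246 (young YFP-, n = 4) and 0.94% ± 0.12 (young YFP+, n = 3). The 4 spleen groups of day 90 had 1.40% ± 0.397 (24-week YFP-, n = 4), 1.04% ± 0.0617 (24-week YFP+, n = 4), 0.746% ± 0.0754 (young YFP-, n = 4) and 0.693% ± 0.0712 (young YFP+, n = 3). At day 5 the means were 0.939% ± 0.0336 in marrow YFP- (n = 3), 0.859% ± 0.128 in marrow YFP+ (n = 3), 1.24% ± 0.43 in spleen YFP- (n = 3) and 0.792% ± 0.236 in spleen YFP+ (n = 4). The 12 groups thus ran from young spleen YFP+ to 24-week spleen YFP-, both spleen, while the marrow group means stayed between 0.859% and 1.08%.

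**Figure D3:**
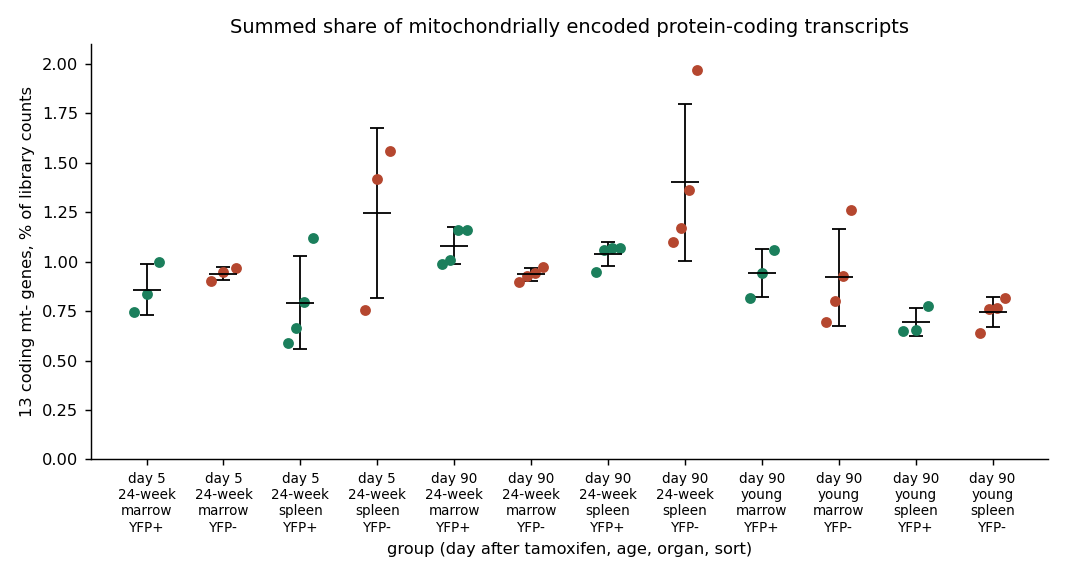
Percent of a library's counts in the 13 mitochondrial coding genes (vertical axis) in each of the 12 groups (horizontal axis); points are libraries, and the bar and whiskers are the group mean and SD. In the spleen at day 90 the 4 24-week YFP- libraries sit between 1.10% and 1.97%, above the 4 young ones, which sit between 0.639% and 0.817%.

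Mouse age divided the spleen libraries of day 90. In the YFP- fraction the coding share was 1.97%, 1.10%, 1.17% and 1.36% in the 24-week mice M2, M3, F15 and F12, and 0.766%, 0.817%, 0.639% and 0.761% in 4 young mice. The groups did not overlap, and the log2 difference was 0.877, or 1.84-fold. A two-sided exact permutation test gave p = 0.0286, the smallest that 70 relabellings allow, and an adjusted p of 0.131 over the 16 share comparisons. Without the 24-week mouse M2 the difference was 0.699.

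Gene by gene, edgeR's quasi-likelihood test called 0 of the 13 coding members in this comparison, with 10 at an unadjusted p under 0.05. The share of all tested genes called was 0.0%, and 13.1% of them had an unadjusted p under 0.05. All 12 coding members other than mt-Nd4l were higher in 24-week mice, with a median log2 change of 1.20 against 0.008 over all tested genes. Here and below, these 12 include mt-Co3 and mt-Nd3, whose deposited values cannot be read as levels of those transcripts. They also include mt-Atp6, whose split with its copy differed between libraries. In this comparison the log2 change of mt-Co3 ran from -0.18 to 0.46 over leave-one-out. Members cut from a shared precursor are also not independent of each other, so the count of directions is only descriptive. Counts of called members keep mt-Nd4l among the 13, although it was at 0 in every day 5 and every YFP+ library. In comparisons among those libraries mt-Nd4l could not be called. In 9 of the 13 coding genes and in both ribosomal RNAs every 24-week library was above every young one, as in 2.1% of all tested genes. The 9 were mt-Nd1, mt-Nd2, mt-Nd4, mt-Nd5, mt-Cytb, mt-Co1, mt-Co2, mt-Atp6 and mt-Atp8.

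The complex I genes differed to unequal degrees. mt-Nd2 was at 339, 77.5, 82.1 and 197 CPM in the 24-week mice M2, M3, F15 and F12, and at 33.2, 35.2, 43.1 and 58.2 CPM in the young mice. The ranges were apart, and within the 24-week group M2 and F12 stood well above M3 and F15. The log2 change was 2.04 ± 0.38 (SE; edgeR adjusted p = 0.0542). mt-Nd4 was at 1060, 496, 398 and 756 CPM in the same 4 mice and at 205 to 281 CPM in the young mice (log2 1.41 ± 0.285, edgeR adjusted p = 0.0613). mt-Nd1 was at 1420, 679, 685 and 888 CPM against 333 to 437 CPM (log2 1.29 ± 0.254, edgeR adjusted p = 0.0577). Each of these genes was again highest in M2, and the other 3 mice were still above all young mice. mt-Nd5 was at 695, 432, 482 and 521 CPM against 233 to 332 CPM (log2 0.96 ± 0.227, edgeR adjusted p = 0.146). mt-Nd6 was at 103, 24.6, 13.5 and 45.6 CPM against 7.63 to 14 CPM (log2 2.15 ± 0.493, edgeR adjusted p = 0.129). Its ranges overlapped, because mouse F15 lay below the highest young mouse.

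In complexes III and IV the log2 changes of mt-Co2, mt-Co1 and mt-Cytb ran from 0.74 to 1.11. mt-Co2 was at 2760, 1460, 1360 and 2160 CPM in M2, M3, F15 and F12 and at 844 to 951 CPM in the young mice (log2 1.11 ± 0.234, edgeR adjusted p = 0.0695). mt-Co1 was at 6610, 4650, 3960 and 5020 CPM against 2350 to 3110 CPM (log2 0.88 ± 0.221, edgeR adjusted p = 0.185). mt-Cytb was at 3970, 2600, 2340 and 2300 CPM against 1590 to 1790 CPM (log2 0.74 ± 0.197, edgeR adjusted p = 0.243). No library of either age crossed over in these genes. mt-Co3 as deposited changed by 0.09 ± 1.05, an error far larger than the change. Summed with Gm28437, mt-Co3 was at 4550 ± 706 CPM (SD, n = 4) in 24-week mice and 2600 ± 319 CPM (n = 4) in young mice, a log2 change of 0.81 ± 0.192.

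For ATP synthase, mt-Atp6 was at 2700, 917, 1080 and 1230 CPM in M2, M3, F15 and F12 and at 280 to 615 CPM in young mice (log2 1.77 ± 0.363, edgeR adjusted p = 0.0619). The copy held 2.99e-05% to 20.8% of the mt-Atp6 pair in these 24-week libraries and 16.9% to 55.1% in the young ones. With its copy added the change of mt-Atp6 was smaller, at 1.26 ± 0.255. mt-Atp8 was at 6.05, 3.84, 3.99 and 3.72 CPM against 3.2 to 3.48 CPM (log2 0.41 ± 0.383, edgeR adjusted p = 0.658). Its ranges did not overlap, but its change was little larger than its standard error. Of the ribosomal RNAs, mt-Rnr2 was at 1620, 324, 380 and 1100 CPM against 165 to 239 CPM (log2 2.05 ± 0.501, edgeR adjusted p = 0.179). mt-Rnr1 was at 384, 30.4, 50.8 and 178 CPM against 14.9 to 26.8 CPM (log2 2.82 ± 0.679, edgeR adjusted p = 0.179). The 24-week mice M2 and F12 were far above M3 and F15 for both ribosomal RNAs.

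Whether members were called here turned on the settings. Summing each gene with its copy called 4 members (mt-Nd1, mt-Nd2, mt-Nd4 and mt-Atp6, edgeR adjusted p = 0.0457), which were the 4 genes called in all. DESeq2's Wald test called 8 members among 29 genes, and limma's voom 0. Without M3 edgeR called 5 members, which were the 5 genes called in all, and without F15 it called 9 among 275 genes, whereas without M2 and the other 2 libraries lowest in Sdc1 it called 0, with a median log2 change of 0.90 for the 13 and a smallest adjusted p of 0.539.

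Markers of cell identity were read in the same libraries. Sdc1 was at 384 ± 182 CPM in 24-week and 557 ± 127 CPM in young spleen YFP- libraries (log2 -0.54 ± 0.319, edgeR adjusted p = 0.46). The summed level of 9 erythroid markers was 2.25 to 236 CPM in 24-week and 2.4 to 13.8 CPM in young libraries. For 10 monocyte and macrophage markers it was 1680 to 2800 against 1410 to 2140 CPM, with none at 0. For 9 B cell markers it was 71.4 to 124 against 86.5 to 125 CPM, with none at 0. For 10 T cell markers it was 8.84 to 26.3 against 8.13 to 82 CPM, with Themis at 0 in the 24-week group. For 10 neutrophil and granulocyte precursor markers it was 0.316 to 208 against 0.313 to 520 CPM, with Prtn3 at 0 in the young group. For 6 natural killer (NK) cell markers it was 20.1 to 78.7 against 3.78 to 58 CPM. Of these, Klrb1c, Klra8 and Klre1 were at 0 in both groups, and Ncr1 in the young group. All these sums overlapped between the ages, and the part of these cells in the mitochondrial differences was not tested. Among the day 90 libraries, only 1 date in the titles, whose meaning is not stated, held both ages: on it 24-week spleen YFP- libraries had coding shares of 1.36% and 1.17% and the young one 0.817%.

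In the YFP+ fraction of the spleen the age difference was smaller but tighter. The coding share was 0.946%, 1.06%, 1.07% and 1.07% in the 4 24-week mice and 0.651%, 0.654% and 0.775% in the 3 young mice. The groups did not overlap and differed 1.5-fold (log2 0.586, two-sided exact permutation p = 0.0286, the smallest that 35 relabellings allow, adjusted p = 0.131). The title date with both ages held shares of 1.07% and 1.06% against 0.775%. The summed level of 10 monocyte and macrophage markers, none at 0, did not overlap between the ages, at 2310 to 3970 CPM in 24-week and 6120 to 8690 CPM in young libraries. Erythroid markers summed to 1.65 to 3090 against 1.42 to 96.4 CPM. The part of these cells in the mitochondrial difference was not tested. edgeR called 0 of the 13 coding members, DESeq2 0 and limma's voom 0, while edgeR put 8 at an unadjusted p under 0.05. Of all tested genes 0.0321% were called and 4.75% had an unadjusted p under 0.05. All 12 coding members other than mt-Nd4l were higher in 24-week mice, with a median log2 change of 0.85 against 0.006 for all genes. In 8 coding genes and both ribosomal RNAs the 24-week libraries were all above the young ones, as in 4.8% of all tested genes.

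The leading member in this fraction was mt-Co2. It was at 1390, 1450, 1350 and 1620 CPM in 24-week mice and 808, 662 and 811 CPM in young mice (log2 0.93 ± 0.256, edgeR adjusted p = 0.435). Its ranges lay far apart, and fitting the compared groups alone brought it to an edgeR adjusted p of 0.0437, among 10 of 10894 genes called. mt-Cytb was at 2360, 2080, 2070 and 2900 CPM against 1450, 1390 and 1600 CPM (log2 0.67 ± 0.215, edgeR adjusted p = 0.68). mt-Nd2 was at 65.5 to 110 CPM against 45.5 to 49.1 CPM, a log2 change of 0.92 where the YFP- fraction had 2.04. mt-Rnr2 was at 423 to 507 CPM against 169 to 185 CPM. mt-Co3 summed with its copy was at 4000 ± 409 CPM (n = 4) against 2480 ± 363 CPM (n = 3). The difference in the age effect between the fractions was tested in edgeR for each member, and 0 of 13 were called, with 2 at an unadjusted p under 0.05, beside 3.32% of all tested genes. DESeq2 and limma's voom also called 0.

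**Figure D4:**
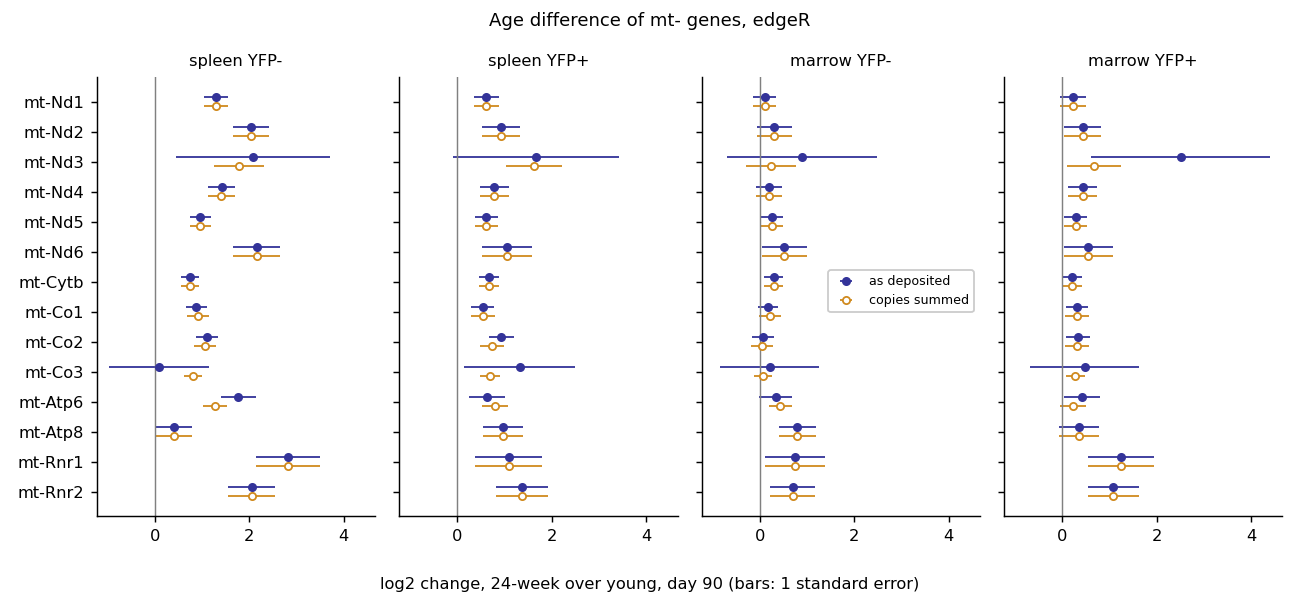
Log2 change of each mitochondrial member (vertical axis: gene) in 24-week against young mice at day 90 (horizontal axis), with 1 panel for each organ and fraction; filled points are deposited counts, open points have the nuclear copy added, and whiskers are 1 standard error from edgeR. In spleen YFP- mt-Nd2 changed by 2.04 and mt-Cytb by 0.74, while the marrow YFP- values of the coding genes other than mt-Nd4l lay between 0.06 and 0.89.

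In the marrow the ages were closer. The coding share differed by 0.0575 on the log2 scale in YFP- libraries (exact permutation p = 0.8, adjusted p = 0.829) and by 0.204 in YFP+ libraries (exact permutation p = 0.171, adjusted p = 0.343). With 1 library left out the YFP+ value ran from 0.108 to 0.293, the lowest without the young replicate 3. The YFP- shares were 0.899% to 0.974% in 24-week mice and 0.696% to 1.26% in young mice, so the younger range enclosed the older one. edgeR called 0 of 13 coding members in either fraction, as did DESeq2 and limma's voom, with 2 at an unadjusted p under 0.05 in YFP- and 0 in YFP+ libraries. Over all tested genes 0.0% and 0.0241% were called. All 12 coding members other than mt-Nd4l were nonetheless on the higher side in 24-week mice in each fraction, with medians of 0.28 and 0.39. In YFP- libraries 0 coding genes had all 24-week libraries above all young ones, beside 0.57% of all tested genes. In YFP+ libraries 2 did, mt-Co2 and mt-Atp6, beside 2.99%. There Gm10925 held 16.6% to 22.1% of the mt-Atp6 pair in 24-week mice and 22.9% to 35.3% in young mice.

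Whether the organs differed in their age effect was tested within mice, after the values had been seen. In YFP- libraries the share in marrow was below that in spleen in 4 of 4 24-week mice, with a mean log2 difference of -0.544, and above it in 4 of 4 young mice, with a mean of 0.275. The within-mouse differences of the 2 ages did not overlap and were -0.819 apart (two-sided exact permutation p = 0.0286, the smallest that 70 relabellings allow, adjusted p = 0.0429 over 3 such contrasts). In YFP+ libraries the means were 0.054 in 24-week mice (3 of 4 positive) and 0.435 in young mice (3 of 3 positive), which were -0.381 apart (exact permutation p = 0.0286, adjusted p = 0.0429). With any 1 of the 9 mice left out, both differences kept their sign. The adjusted p stayed at 0.0429 without the young mouse M2 or M7, and was 0.0857 or more without any of the other 7 mice, where fewer relabellings remained in at least 1 of the contrasts. For single genes edgeR called 0 of 13 coding members in the same contrast in either fraction, and so did DESeq2 and limma's voom. In the YFP- fraction 9 had an unadjusted p under 0.05, against 3.14% of all tested genes.

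**Figure D5:**
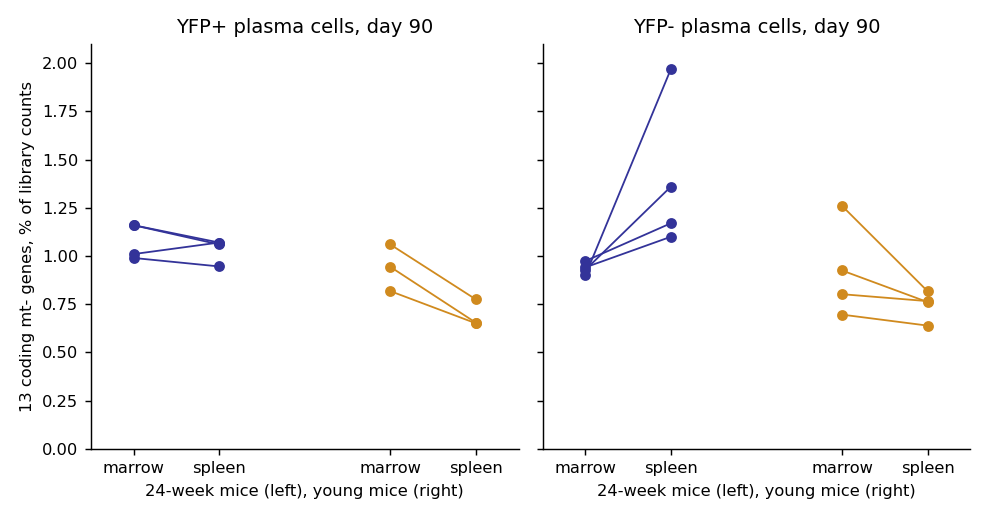
Percent of counts in the mitochondrial coding genes (vertical axis) in marrow and spleen at day 90, with lines joining the libraries of 1 mouse and fraction; within each panel 24-week mice are on the left and young mice on the right. In the YFP- fraction the lines of all 4 24-week mice are higher at the spleen, and those of all 4 young mice are higher at the marrow.

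The comparison of labelled with unlabelled plasma cells asks how cells that carry the YFP mark differ from the bulk. At day 90 in the spleen the YFP+ share was lower, at 0.89% ± 0.194 (n = 7) against 1.07% ± 0.439 (n = 8). The log2 difference with ages weighted equally was -0.25 (two-sided permutation test within ages, exact p = 0.0286, adjusted p = 0.131). Within mice it was lower in 5 of 6 pairs, with differences of -1.061, -0.348, -0.136 and -0.037 in 24-week mice and -0.076 and 0.026 in young mice (sign-flip exact p = 0.0625, adjusted p = 0.25). The largest difference was that of the 24-week mouse M2, whose YFP- library was among the 3 lowest in Sdc1, and without that library the difference was -0.161. edgeR, DESeq2 and limma's voom each called 0 of the 13 coding members, and edgeR put 1, mt-Co1, at an unadjusted p under 0.05. Of all tested genes 3.53% were called, the highest percentage of the 16 comparisons. Of 12 coding members 11 were lower in YFP+ cells, with a median log2 change of -0.33. mt-Co1 was at 3370 CPM in YFP+ and 5060 CPM in YFP- libraries of 24-week mice on average, and at 2330 and 2750 CPM in young mice (edgeR adjusted p = 0.169).

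In the marrow at day 90 the fractions were close. The share was 1.02% ± 0.121 (n = 7) in YFP+ and 0.928% ± 0.163 (n = 8) in YFP- libraries, a log2 difference of 0.13 (exact permutation p = 0.299, adjusted p = 0.532). Within mice the YFP+ library was higher in 5 of 6 pairs, and the young mouse F2 went the other way at -0.257. edgeR, DESeq2 and limma's voom called 0 of 13 members, and edgeR had 0 at an unadjusted p under 0.05, beside 0.458% of all tested genes called. Of 12 coding members 6 were higher and 6 lower. In the 24-week mice alone, the fraction difference was positive in marrow in 4 of 4 mice and negative in spleen in 4 of 4 mice. Their means of 0.204 and -0.395 were -0.599 apart, with a sign-flip exact p of 0.125, which is the smallest that 4 mice can give.

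At day 5 the spleen showed the same order with wider spread. The coding share was 1.42%, 1.56% and 0.754% in YFP- replicates 1, 2 and 3 and 0.664%, 0.587%, 0.795% and 1.12% in YFP+ replicates 1 to 4. The groups overlapped: YFP- replicate 3 lay among the YFP+ libraries. The log2 difference was -0.628 (two-sided exact permutation p = 0.171, adjusted p = 0.343). Within mice the differences were -1.097, -1.409 and 0.076. mt-Nd4 was at 810, 954 and 251 CPM in YFP- replicates 1, 2 and 3 and at 239, 222, 267 and 482 CPM in YFP+ replicates 1 to 4 (log2 -1.15 ± 0.3, edgeR adjusted p = 0.213). mt-Nd2 was at 177, 218 and 38.7 CPM against 51, 36.7, 48.8 and 85.8 CPM (log2 -1.38). In both genes 2 of 3 YFP- libraries stood above all YFP+ libraries and replicate 3 did not.

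edgeR called 0 of the 13 coding members at day 5 in the spleen, with 7 at an unadjusted p under 0.05, where 0.0% of all tested genes were called and 15% had an unadjusted p under 0.05. DESeq2 called 1 (mt-Nd4) and limma's voom 0. With the mouse as a replicate block, edgeR called 7 as lower in YFP+ cells, namely mt-Co1, mt-Co2, mt-Nd1, mt-Nd2, mt-Nd4, mt-Nd5 and mt-Nd6 (smallest adjusted p = 0.0352), among 456 of all 12457 genes. Without YFP- replicate 3 edgeR called 8 members among 1656 of 12936 genes. Sdc1 was at 354 ± 220 CPM (n = 3) in YFP- and 634 ± 243 CPM (n = 4) in YFP+ libraries, and the YFP- replicate with the highest coding share, 1.56%, had the lowest Sdc1 of the series. In the marrow at day 5 the share was 0.859% ± 0.128 (n = 3) in YFP+ and 0.939% ± 0.0336 (n = 3) in YFP- libraries (exact permutation p = 0.4, where 0.1 is the smallest possible). There edgeR, DESeq2 and limma's voom called 0 of 13 members, 0 were at an unadjusted p under 0.05, and 0.0% of all tested genes were called. The difference between organs in the day 5 fraction effect had 5 of 13 members at an unadjusted p under 0.05, beside 3.64% of all tested genes, and 0 called by edgeR, DESeq2 or limma's voom.

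Marrow and spleen were also compared within each fraction. In YFP+ cells of day 90 the share was higher in marrow, at 1.02% ± 0.121 (n = 7) against 0.89% ± 0.194 (n = 7), by 0.245 on the log2 scale (permutation within ages, exact p = 0.0329, adjusted p = 0.131). Within mice it was higher in 6 of 7 pairs (sign-flip exact p = 0.0469, adjusted p = 0.25). 11 of 12 coding members were higher in marrow, with a median log2 change of 0.38. edgeR called 0 of 13 with 4 at an unadjusted p under 0.05 (smallest adjusted p = 0.437, mt-Co2), DESeq2 and limma's voom called 0, and 0.193% of all tested genes were called. A fit of the compared groups alone called mt-Co2 (edgeR adjusted p = 0.0427) among 96 of 11441 genes. In YFP- cells of day 90 the organs had no common direction, as the within-mouse values by age show: 7 of 12 members were higher in marrow, 0 were called by any of the 3 tools or at an unadjusted p under 0.05 in edgeR, and 0.136% of all tested genes were called.

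At day 5 the YFP- share was 0.939% ± 0.0336 in marrow and 1.24% ± 0.43 in spleen (n = 3 each, exact permutation p = 0.4). All 12 coding members other than mt-Nd4l were lower in marrow, with a median log2 change of -0.50. edgeR called 0 of 13 with 3 at an unadjusted p under 0.05 (smallest adjusted p = 0.156, mt-Nd4), and DESeq2 and limma's voom called 0, beside 0.00803% of all tested genes called. Without spleen replicate 3 edgeR called 6 members among 1983 of 12936 genes. Sdc1 did not overlap in this comparison, at 634 to 744 CPM in marrow and 149 to 587 CPM in spleen, and its part in the result was not tested. In YFP+ cells of day 5 the shares were 0.859% ± 0.128 (n = 3) in marrow and 0.792% ± 0.236 (n = 4) in spleen. All 3 tools called 0 of 13 members, edgeR had 0 at an unadjusted p under 0.05, and 0.0% of all tested genes were called.

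Day 90 was set against day 5 in mice treated at 24 weeks. The day 90 mice were therefore older when sampled, and time after tamoxifen cannot be told apart from age at sampling. The YFP+ share was higher at day 90 in marrow, at 0.99% to 1.16% against 0.743% to 0.996%, a log2 difference of 0.337 in which the ranges touched (exact permutation p = 0.0571, adjusted p = 0.183). All 12 coding members other than mt-Nd4l were higher at day 90, with a median log2 change of 0.56, and edgeR called 0 of 13 with 3 at an unadjusted p under 0.05 (smallest adjusted p = 0.324) beside 0.136% of all tested genes. Marker sums of other cells did not overlap between the times: 9 erythroid markers summed to 11.3 to 3210 CPM at day 90 and 1.38 to 7 CPM at day 5, and 10 neutrophil and granulocyte precursor markers to 216 to 2730 against 1.42 to 93.8 CPM. Of the latter list Ctsg was at 0 at day 5. The part of these cells in the mitochondrial values was not tested. In spleen YFP+ cells the share was 1.04% ± 0.0617 against 0.792% ± 0.236 (n = 4 each, exact permutation p = 0.143, adjusted p = 0.343). There 11 of 12 members were higher, 0 of 13 were called with 1 at an unadjusted p under 0.05, and 0.361% of all tested genes were called. The neutrophil and granulocyte precursor markers summed to 5.06 to 75 CPM at day 90 and 0.584 to 1.37 CPM at day 5. Of these 10 markers Ltf was at 0 at day 90, and Elane, Mpo, Ctsg and Retnlg were at 0 at day 5. Cd4, from a list of 10 T cell markers whose sums overlapped, was called lower at day 90 (log2 -2.90 ± 0.665, edgeR adjusted p = 0.0385). The part of these cells in the mitochondrial values was not tested.

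In YFP- cells the times differed less. The marrow share differed by -0.00607 on the log2 scale (exact permutation p = 0.829), yet all 12 coding members other than mt-Nd4l had a fitted change above 0, with a median of 0.33. The share is relative to the raw library total, whereas the fitted changes are relative to library sizes scaled by the trimmed mean of M-values. edgeR called 0 of 13 with 2 at an unadjusted p under 0.05 and 0.0% of all genes. In spleen the share was 1.40% ± 0.397 (n = 4) against 1.24% ± 0.43 (n = 3), well within the spread, while monocyte and macrophage markers summed to 1680 to 2800 against 2970 to 4650 CPM, and edgeR called 0 of 13 with 0 at an unadjusted p under 0.05 and 0.0% of all genes. DESeq2 and limma's voom called 0 coding members in all 4 comparisons of time.

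The nuclear genes that serve the same complexes were followed in 7 lists with 231 tested genes in sum. Over the 16 comparisons 3 of them were called, 2 of 231 in spleen day 90 cells by fraction, where 3.53% of all tested genes were called, and 1 of 231 in marrow, where 0.458% were. The lists were thus called no more often than the whole table in spleen, and the 3 genes are given as single values. Ndufa4, a respiratory chain subunit of complex IV, was lower in YFP+ than in YFP- spleen cells of day 90, at 129 ± 35.8 CPM (n = 7) against 280 ± 182 CPM (n = 8; log2 -1.11 ± 0.272, edgeR adjusted p = 0.0124). Cox6a2, the muscle-type isoform of a complex IV subunit, was higher there, at 57.4 ± 28.1 against 20.1 ± 5.03 CPM (log2 1.51 ± 0.377, edgeR adjusted p = 0.0152). Myc, a transcription factor that promotes growth and mitochondrial biogenesis, was lower in YFP+ marrow cells of day 90, at 11.8 ± 5.52 against 26 ± 7.53 CPM (log2 -1.11 ± 0.256, edgeR adjusted p = 0.0254).

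In the age comparison of spleen YFP- cells 0 genes of these lists were called. The 38 nuclear respiratory chain subunits had a median log2 change of 0.42 and the 79 mitochondrial ribosomal proteins 0.28, beside 0.008 for all genes and 1.20 for the mitochondrial coding members. The 19 genes of mitochondrial transcription and replication had a median of 0.015, the 34 of RNA processing -0.24, the 30 of mitochondrial translation -0.08 and the 21 of mitochondrial turnover -0.10. In spleen YFP+ cells the same comparison gave 0.24 for respiratory chain subunits and 0.26 for ribosomal proteins. In the spleen the nuclear subunits were thus on the same side as the mitochondrial transcripts in both fractions, with smaller medians. The genes of mitochondrial transcription and replication were near the median of all genes in YFP- cells and at 0.124 beside 0.006 in YFP+ cells. In marrow YFP- cells respiratory chain subunits had a median of 0.34 and ribosomal proteins 0.255, beside 0.28 for the coding members other than mt-Nd4l. In marrow YFP+ cells these medians were 0.09 and 0.067.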

How the data were processed

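The authors deposited 1 table of estimated counts per gene, 3.1% of them not whole, made with STAR 2.6.1b and RSEM 1.3.1 per the submitters' processing notes. The notes also name DESeq2 1.26.0, with GRCm38 and GRCm39 both named and no role given. Per the labels' protocols, libraries were made with SMART-Seq v4 and Nextera XT. Coordinates and sequences come from GENCODE M21 (GRCm38). 1362 rows without a gene name held 0.004% of counts and were kept in the library totals and among the rows open to testing.

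Rounded counts entered the robust quasi-likelihood test of edgeR 4.0.16 under R 4.3.3, with TMM scaling (filterByExpr with a minimum count of 10), in 1 fit of 43 libraries and 12 groups, with Benjamini-Hochberg adjustment over 12457 genes and a threshold of 0.05. Comparisons across ages weighted ages equally. CPM values are TMM-scaled, and shares use raw totals. The biological coefficient of variation was 0.425. Summed shares were tested on the log2 scale by two-sided exact permutation within age, adjusted over 16 comparisons. Alternatives were DESeq2 1.42.0, limma 3.58.1 (voom), other filters and scalings, a replicate block by mouse, and leaving libraries out. Same-mouse residuals had a median r of 0.18 (57 pairs), against -0.06 (175 pairs) between mice. Within a group each library came from a different mouse. The main edgeR fit and the permutations of the summed shares took the libraries as independent, although the 43 came from 13 mice, and did not use the pairing by mouse. The replicate block and the sign-flip tests used differences within mice. The scripts were tested on simulated data. The members and lists were chosen with earlier results of these data known. Members were all named, since they are few, and others only where a list gene was called. Which erythroid markers were at 0 is not reported here.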

Additional observations from a re-analysis of the deposited data

Results flagged for a closer look

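Of 119 groups of 4 to 10 values examined, 9 held a library that stood apart from its group. Chance flags about 1 in 20 groups. In 24-week spleen YFP+ libraries of day 90, mouse M2 had the lowest coding share, 0.946% where the next was 1.06%, and mouse M3 the lowest mt-Rnr1, 38.8 CPM where the next was 63.7 CPM. The copies held 36.6% of the coding and copy counts in M2 and 30.8% to 32.6% in the other mice of that group. With the copies added, the share was 1.49% in M2 and 1.54% to 1.59% in those mice. In day 5 spleen YFP+ libraries, replicate 4 stood highest in ribosomal RNA share at 0.0904% (next 0.0288%), in mt-Rnr2 at 806 CPM (next 219 CPM) and in mt-Nd6 at 35.2 CPM (next 11.4 CPM). In young marrow YFP- libraries, mouse F2 stood highest in mt-Nd1 at 795 CPM (next 529 CPM) and in mt-Atp6 at 1200 CPM (next 762 CPM). The copy Gm10925 held 0.00286% of the mt-Atp6 pair in F2 and 3.78% to 17% in the other mice of that group. The spleen YFP- library of the 24-week mouse M2 had 6.05 CPM of mt-Atp8 (next 3.99 CPM), and that of the young mouse F9 had 4.77 CPM of mt-Nd3 where the other 3 young mice were at 0. The copy Gm28438 held 0% of the counts of the mt-Nd3 pair in F9 and 100% in the other 3, so this flag follows the split between gene and copy.

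The organ difference in coding share, marrow minus spleen on the log2 scale, differed between 24-week and young mice by -0.819 in YFP- and by -0.381 in YFP+ libraries (exact permutation p = 0.0286 each, adjusted p = 0.0429). The fraction difference in 24-week mice at day 90 was positive in all 4 marrows and negative in all 4 spleens, -0.599 apart (exact p = 0.125, the smallest possible).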

How the results depend on the processing

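Of the summed share values recomputed under alternatives, 226 kept their direction and side of the threshold and 7 changed sign, and of the members' log2 changes 980 kept both, 54 passed the threshold and 16 changed sign. The share difference of day 90 against day 5 in marrow YFP- was 0.008 with copies summed and 0.013 without the 3 libraries lowest in Sdc1, and ran from -0.035 to 0.016 over leave-one-out; in spleen YFP- it ran from -0.126 to 0.398 and for age in marrow YFP- from -0.066 to 0.221. The age contrasts between organs ran from -0.434 to -0.334 (YFP+) and -0.926 to -0.623 (YFP-), and lost the adjusted call in 7 of 9 cases.

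For age in spleen YFP-, coding members called rose from 0 to 6 in edgeR with no filter (22324 genes tested), to 8 under DESeq2 and to 4 in edgeR with copies summed (0 to 9 over leave-one-out). For the day 5 spleen fractions they rose to 7 with the replicate block and 1 under DESeq2 (0 to 8), for day 5 organs in YFP- cells to 6 (0 to 6), and to 1 for age in spleen YFP+ and for organs in day 90 YFP+ cells with the compared groups alone. The block changed no other count of called members. The share of all genes called is not given for the fit with no filter or for DESeq2 in the day 5 spleen fractions. These 2 counts therefore cannot be read as particular to the members. For the day 5 spleen fractions mt-Atp8 was -0.33 with the replicate block and -0.35 to 0.46 over leave-one-out, and mt-Co3 was 0.02 without the 3 libraries and -0.81 to 0.03 over leave-one-out. In the day 90 spleen fractions mt-Nd3 was -0.34 with the replicate block, -0.13 with copies summed and -0.2 to 3.74 over leave-one-out, and mt-Nd5 was 0.03 without the 3 libraries and -0.09 to 0.04 over leave-one-out. For age in spleen YFP- mt-Co3 was -0.11 without the 3 libraries and -0.18 to 0.46 over leave-one-out. The cause of these changes was not tested. Alternatives with copies summed, without the 3 libraries and for the contrasts were chosen after seeing the data. Groups of 3 or 4 mice limit the calls, and counts of mt-Atp8, mt-Nd3 and mt-Nd4l are low.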
